A study of Homo sapiens with 6 samples.

Results

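DKK1 and 9 other genes that act in, or are switched on by, canonical Wnt signalling were followed in HCT116 cells with and without METTL3. The 10 genes, DKK1, AXIN2, LGR5, RNF43, ZNRF3, NKD1, SP5, TCF7, LEF1 and CTNNB1, were found by their symbols among the 56638 gene symbols counted in each library. They were chosen by name as a pathway, but with the METTL3-KO against WT results of these same counts already known, and DKK1 for its large difference there. Their values between the groups are therefore a description. No p-value of theirs is given, and nothing is read from whether they passed a threshold. All 10 were above the minimum of 5 total counts in either condition that left 22452 symbols for testing.

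In canonical Wnt signalling, a secreted Wnt ligand binds a Frizzled receptor and an LRP co-receptor, the destruction complex that marks beta-catenin for degradation is switched off, and beta-catenin enters the nucleus, where it activates genes with TCF and LEF factors. Many of these target genes encode brakes on the pathway itself, so their RNA is commonly used to read its output. Some brakes act at the cell surface (DKK1 on the co-receptor, RNF43 and ZNRF3 on Frizzled) and others inside the cell (AXIN2 and NKD1). HCT116 is a human colorectal carcinoma cell line that carries a stabilising mutation in CTNNB1, the gene of beta-catenin, so its beta-catenin signalling can run without a ligand. How far it still depends on ligands was not measured here.

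The libraries came from 3 WT and 3 METTL3-KO samples of HCT116 cells. The starting material was total RNA, and the paper's sequencing methods do not say whether poly(A) RNA was selected from it. METTL3 is the catalytic subunit of the enzyme that writes N6-methyladenosine on mRNA. By the labels and the methods it was disrupted by CRISPR/Cas9, delivered by lentivirus with puromycin selection, in a line described as monoclonal, so what is particular to that clone and what the loss of METTL3 does cannot be told apart. The sources used here do not say that the WT cells carried a control vector, or that the replicates were separate cultures, so errors and p-values measure only the spread between these samples.

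Counts on genes ran from 20936091 to 30142144 per library. METTL3 itself held 841, 682 and 623 counts in WT and 219, 169 and 162 in METTL3-KO, a log2 fold change of -2.04 (SE 0.0906), with no overlap between the groups. Of the 8 colorectal epithelial markers, EPCAM and CDH1 were between 412 and 560 CPM (counts scaled to the size of the library) in every library, while CDX1 and CDX2 were between 2.34 and 8.85 CPM. The 8 together summed to between 5800 and 7190 CPM in WT and between 8300 and 9250 CPM in METTL3-KO, without overlap. KRT8 (3480 to 4490 against 4970 to 5660 CPM), KRT19 (633 to 857 against 1250 to 1430 CPM) and VIL1 (280 to 285 against 418 to 452 CPM) were higher in every METTL3-KO library. So were CDH1 (412 to 478 against 489 to 533 CPM) and CDX1 (2.34 to 3.53 against 3.55 to 4.42 CPM). EPCAM, KRT18 and CDX2 overlapped between the groups. The part of these markers in the results was not tested. The 9 markers of fibroblasts, leukocytes and endothelium summed to between 4.92 and 6.08 CPM in WT and between 6.34 and 8.21 CPM in METTL3-KO, of which COL1A1 made up nearly all. COL3A1 and PECAM1 were at 0 in all 6 libraries. Replicate 3 of each group stood apart from its fellows: the chi-square per gene was 8.32 to 23.1 against them, compared with 2.34 and 2.58 between replicates 1 and 2, and the deviations from the group means followed transcript length in opposite directions (r = 0.630 for WT replicate 3 and -0.568 for METTL3-KO replicate 3, across 9471 genes). Each gene is therefore also given without replicate 3 of either group. The file names that hold the libraries call the WT samples NC and number them differently from the labels, and call the METTL3-KO samples SiM3. These names could also be read as those of an siRNA experiment, and a lower METTL3 RNA does not tell a knockout from a knockdown. That the libraries are those of the knockout line rests on the labels, which were used, and on the paper. The paper describes its RNA-seq as a comparison of the knockout with WT cells, and reports sequencing and Western blot of the knockout.

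In METTL3-KO cells DKK1 was 4.26-fold higher than in WT cells, SP5 1.86-fold and AXIN2 1.42-fold, while LGR5 stood at 0.378 of its WT level. RNF43, ZNRF3, TCF7 and CTNNB1 differed by a factor of between 0.840 and 1.14. NKD1 and LEF1 were near the limit of detection. Of the 10 genes, DKK1, AXIN2 and SP5 were past the threshold of an adjusted p under 0.05 as higher and LGR5 as lower, beside 13.3% of all tested genes called higher and 13.2% called lower. For 9 of the 10 genes the groups did not overlap, beside 40.9% of all tested genes. The median log2 fold change was 0.345 over the 10 genes, with the poorly measured NKD1 and LEF1 included, and -0.022 over all tested genes. The 10 genes were chosen with this contrast known, so these counts and medians describe them and are no evidence of an excess.

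**Figure D1:**
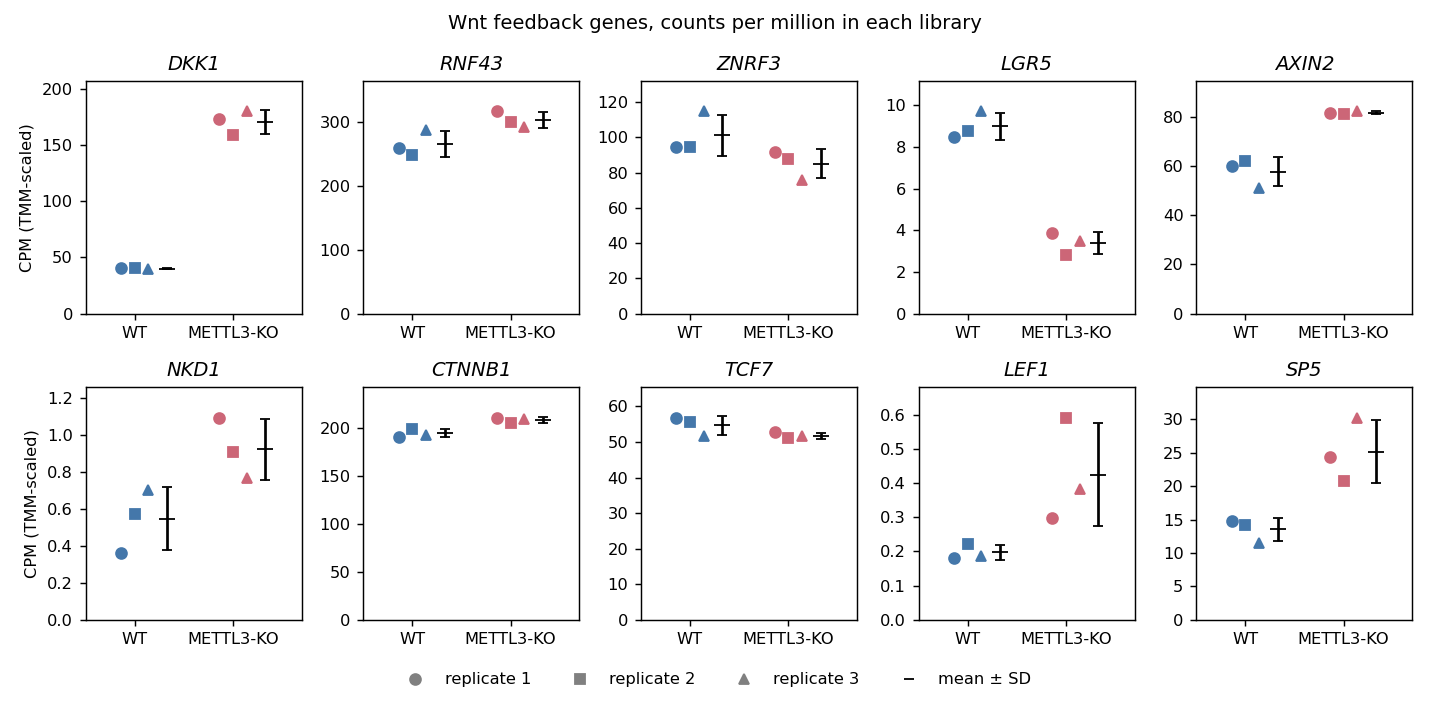
CPM of each gene in each library, on linear axes that start at 0, for WT (blue) and METTL3-KO (red), with circles, squares and triangles for replicates 1, 2 and 3 and black bars for the mean ± SD. The METTL3-KO points of DKK1 lie between 159 and 180 CPM and the WT points between 39.6 and 40.2 CPM, those of LGR5 lie below all WT points, and only in TCF7 do the groups overlap.

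The secreted inhibitor DKK1 binds the LRP5 and LRP6 co-receptors and, with Kremen proteins, takes them out of reach of Wnt ligands. The gene lies on chr10:54074041-54077802 of GRCh37, on the plus strand. DKK1 had 1102, 908 and 844 counts in WT replicates 1 to 3 and 5207, 3487 and 4227 in METTL3-KO replicates 1 to 3. This was 40.1, 40.2 and 39.6 CPM in WT and 173, 159 and 180 CPM in METTL3-KO. The 3 WT libraries were nearly equal, and each METTL3-KO library was far above all of them. The means were 40.0 ± 0.334 and 170.4 ± 10.7 CPM (SD, n = 3 each), a log2 fold change of 2.09 (SE 0.0763). With each library left out in turn it ran from 2.05 to 2.14, and without both replicates 3 it was 2.05. Among the 12905 tested genes whose log2 CPM averaged at least 1, DKK1 was at rank 22 from the highest log2 fold change. Among all 22452 tested genes it was at rank 446. DKK1 was chosen for its large difference, so these ranks only describe it.

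About 10.2% of the exon length of DKK1 is shared with the antisense gene PRKG1-AS1, and whether the counting used the strand is not given in the sources used here. PRKG1-AS1 held 21, 27 and 22 counts in WT and 65, 49 and 50 in METTL3-KO, with a log2 fold change of 1.13 (SE 0.218). Its largest count, 65, stands beside the 5207 of DKK1 in the same library. Without strand, reads from these genes cannot be told apart where they overlap.

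The sequence before the DKK1 start site is shown because DKK1 is both an inhibitor of the pathway and a known target of beta-catenin and TCF, and that of SP5 because SP5 is one of the most direct targets. Windows of 300 bases, from 250 before to 50 after each annotated start, were taken from RefSeq on GRCh38.p14 for the 6 of 10 genes found in the promoter table used here (DKK1, RNF43, SP5, TCF7, LEF1 and CTNNB1). They were searched on both strands for the TCF/LEF words CTTTGAA, its variant CTTTGAT, and likewise CTTTGTA with its variant CTTTGTT, and the matches do not overlap. RNF43 and TCF7 have more than 1 such window. At least 1 word was present in 3 of the 8 windows of these genes (those of DKK1 and SP5 and 1 of TCF7) and in 13.8% of all 35116 windows of that length. The DKK1 word CTTTGAA begins at position -95 and CTTTGTT at -76 from the start site. In SP5, CTTTGAA begins at -148 and -84, both on the minus strand and so read as TTCAAAG, and CTTTGAT lies at -109. These matches are of letters, and binding was not measured. The 250 bases before each start, chr10:52314031-52314280 for DKK1 and chr2:170715087-170715336 for SP5, both on the plus strand of GRCh38.p14, are printed 5′ to 3′ with the words in capitals:
DKK1: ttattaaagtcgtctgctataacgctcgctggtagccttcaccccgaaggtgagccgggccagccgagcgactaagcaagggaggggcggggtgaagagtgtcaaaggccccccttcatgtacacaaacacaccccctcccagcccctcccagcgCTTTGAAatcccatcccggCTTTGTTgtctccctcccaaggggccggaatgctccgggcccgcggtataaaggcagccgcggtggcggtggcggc
SP5: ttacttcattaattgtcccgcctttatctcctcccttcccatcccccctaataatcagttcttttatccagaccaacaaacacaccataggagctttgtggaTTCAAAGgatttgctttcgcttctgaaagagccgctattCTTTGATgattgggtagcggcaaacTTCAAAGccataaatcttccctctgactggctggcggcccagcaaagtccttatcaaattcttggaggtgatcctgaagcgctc

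The other surface inhibitors are the paired ubiquitin ligases RNF43 and ZNRF3, which remove Frizzled receptors from the membrane. RNF43 (chr17:56431037-56494956, minus strand, GRCh37) held 7131, 5623 and 6143 counts in WT and 9550, 6588 and 6874 in METTL3-KO, or 259.7, 248.7 and 288 CPM against 317, 299.7 and 292 CPM. The highest WT library came within a few CPM of the lowest METTL3-KO library, without overlap. The means were 265.5 ± 20.3 and 303 ± 12.6 CPM (SD, n = 3 each) and the log2 fold change 0.19 (SE 0.0757). Without both replicates 3 it was 0.28. In the annotation used here, other genes cover 69.0% of the exon length of RNF43, including 1 on the same strand. Its counts are therefore uncertain, as far as these genes were also in the annotation used for counting.

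ZNRF3 (chr22:29279560-29453476, plus strand) went the other way, with 2593, 2134 and 2446 counts in WT and 2764, 1924 and 1781 in METTL3-KO. As CPM this was 94.4, 94.4 and 115 in WT and 91.7, 87.5 and 75.7 in METTL3-KO. WT replicate 3 was the highest and METTL3-KO replicate 3 the lowest, and replicates 1 and 2 of both groups lay close together. The log2 fold change was -0.25 (SE 0.0987), but -0.15 without WT replicate 3, -0.17 without METTL3-KO replicate 3 and -0.08 without both. The ratio of RNF43 to ZNRF3 within each library, in CPM and not corrected for length, was 2.75, 2.64 and 2.51 in WT and 3.46, 3.42 and 3.86 in METTL3-KO. All METTL3-KO ratios were above all WT ratios, with means of 2.63 ± 0.120 and 3.58 ± 0.243 (SD, n = 3 each).

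LGR5 is a receptor for R-spondins, the secreted proteins that hold RNF43 and ZNRF3 back and so strengthen Wnt signals, and it marks the stem cells of the intestinal crypt. LGR5 (chr12:71833578-71980090, plus strand) held 233, 198 and 207 counts in WT and 117, 62 and 82 in METTL3-KO, or 8.49, 8.76 and 9.71 CPM against 3.88, 2.82 and 3.49 CPM. Every METTL3-KO library was below every WT library. The means were 8.98 ± 0.640 and 3.40 ± 0.536 CPM (SD, n = 3 each), a log2 fold change of -1.39 (SE 0.139), the rank 39 from the lowest among the 12905 genes above. It ran from -1.50 to -1.28 with each library left out and was -1.34 without both replicates 3. LGR5 was thus the 1 gene of the 10 that was well below its WT level, while DKK1, AXIN2 and SP5 were above theirs.

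LGR4 and LGR6 are the related R-spondin receptors. LGR6 held 19, 32 and 17 counts in WT and 78, 65 and 63 in METTL3-KO and rose by 1.51 on the log2 scale (SE 0.251, edgeR quasi-likelihood adjusted p = 0.000878, Benjamini-Hochberg). LGR4, the most abundant of the family per kilobase of exon, was at 159 ± 21.2 CPM in WT and 132 ± 7.29 CPM in METTL3-KO (SD, n = 3 each), a log2 fold change of -0.26 that did not pass (SE 0.0947, edgeR adjusted p = 0.0595). It was -0.15 without WT replicate 3, and passed at -0.11 without both replicates 3 (edgeR adjusted p = 0.0398). LGR4 also passed at -0.26 with no filter beyond 1 count (edgeR adjusted p = 0.0135). With an offset for transcript length and GC content it passed at -0.27 (edgeR adjusted p = 0.00566). Within each library, LGR6 was 0.0816, 0.162 and 0.0821 of LGR5 in WT and 0.667, 1.05 and 0.768 of it in METTL3-KO, in CPM. Both genes were below 4 CPM in METTL3-KO, so this ratio rests on small counts. The ratio of LGR5 to LGR4 was 0.0570 ± 0.00355 in WT and 0.0258 ± 0.00469 in METTL3-KO (SD, n = 3 each), without overlap. The R-spondins RSPO1, RSPO2, RSPO3 and RSPO4 had no count in any library, and a count of 0 allows up to 0.0995 to 0.143 CPM, depending on the library, for counting error only.

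Inside the cell, AXIN2 is a scaffold of the destruction complex and the most widely used target gene of beta-catenin. AXIN2 (chr17:63524681-63557766, minus strand) held 1650, 1399 and 1091 counts in WT and 2460, 1786 and 1932 in METTL3-KO. This was 60.1, 61.9 and 51.2 CPM in WT and 81.6, 81.3 and 82.2 CPM in METTL3-KO. The METTL3-KO libraries were nearly equal and all above the WT libraries, of which replicate 3 was the lowest. The means were 57.7 ± 5.75 and 81.7 ± 0.450 CPM (SD, n = 3 each), a log2 fold change of 0.50 (SE 0.0834), or 0.42 without both replicates 3. In the annotation used here, a gene on the same strand shares 25.3% of the exon length of AXIN2. This makes the level of AXIN2 uncertain, if that gene was also in the annotation used for counting.

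Its paralog AXIN1, which is not a target of the pathway, rose as well, from 93.0 ± 2.43 to 118 ± 4.44 CPM (SD, n = 3 each), by 0.35 on the log2 scale (SE 0.0694, edgeR adjusted p = 0.00299). The ratio of AXIN2 to AXIN1 was 0.621 ± 0.0655 in WT and 0.692 ± 0.0220 in METTL3-KO (SD, n = 3 each) and overlapped between the groups.

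NKD1 binds Dishevelled and is a further feedback inhibitor. NKD1 (chr16:50582307-50683160, plus strand) held only 10, 13 and 15 counts in WT and 33, 20 and 18 in METTL3-KO, or 0.364, 0.575 and 0.703 CPM against 1.10, 0.910 and 0.765 CPM. The groups did not overlap, but WT replicate 3, the highest of its group, came close to METTL3-KO replicate 3, the lowest of its own. The log2 fold change was 0.79 (SE 0.323), 1.01 without WT replicate 3 and 1.13 without both replicates 3. With 10 to 33 counts per library, a difference of this size is poorly determined. Its paralog NKD2 was at 14.3 ± 2.29 and 13.1 ± 1.06 CPM (SD, n = 3 each), with overlapping groups and a log2 fold change of -0.13 (SE 0.123, edgeR adjusted p = 0.498), which was 0.002 without WT replicate 2 and -0.29 without both replicates 3 (edgeR adjusted p = 0.0105).

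CTNNB1 encodes beta-catenin. CTNNB1 (chr3:41236232-41301587, plus strand) held 5254, 4516 and 4124 counts in WT and 6371, 4512 and 4922 in METTL3-KO, or 191, 199.8 and 193 CPM against 211, 205 and 209 CPM. The groups lay close but apart, with means of 195 ± 4.39 and 209 ± 3.08 CPM (SD, n = 3 each). On the log2 scale the difference was 0.10 (SE 0.0651), 0.09 without both replicates 3. The counts say nothing of the amount or place of the beta-catenin protein, nor of which allele was read.

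TCF7 and LEF1 encode DNA-binding partners of beta-catenin that are themselves induced by it in many cells. TCF7 (chr5:133450372-133487556, plus strand) held 1561, 1254 and 1101 counts in WT and 1589, 1121 and 1212 in METTL3-KO, or 56.9, 55.5 and 51.6 CPM against 52.7, 51.0 and 51.5 CPM. The groups overlapped, and the log2 fold change was -0.08 (SE 0.0734), -0.12 without both replicates 3. LEF1 (chr4:108968701-109090112, minus strand) held 5, 5 and 4 counts in WT and 9, 13 and 9 in METTL3-KO, which is close to the limit of detection in all libraries. Its log2 fold change of 1.06 (SE 0.468), 1.08 without both replicates 3, rests on these few counts.

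Neither of the other TCF genes passed the test. TCF7L2, the TCF factor most used in colon epithelium, was at 77.4 ± 5.33 CPM in WT and 77.2 ± 2.90 CPM in METTL3-KO (SD, n = 3 each; log2 fold change -0.003, SE 0.0768, edgeR adjusted p = 0.979). TCF7L1 held 19, 16 and 15 counts in WT and 27, 30 and 18 in METTL3-KO (log2 fold change 0.51, SE 0.297, edgeR adjusted p = 0.241). The ratio of TCF7 to TCF7L2 was 0.710 ± 0.0799 in WT and 0.671 ± 0.0226 in METTL3-KO (SD, n = 3 each), with overlap.

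SP5 encodes a zinc finger repressor that is switched on by beta-catenin and dampens other Wnt targets. SP5 (chr2:171571847-171574588, plus strand, GRCh37) held 406, 322 and 246 counts in WT and 735, 458 and 712 in METTL3-KO, or 14.8, 14.2 and 11.5 CPM against 24.4, 20.8 and 30.3 CPM. All METTL3-KO libraries were above all WT libraries, and METTL3-KO replicate 3 was the highest. The means were 13.5 ± 1.74 and 25.2 ± 4.77 CPM (SD, n = 3 each), a log2 fold change of 0.89 (SE 0.139). Without both replicates 3, which pulled the groups apart here, it was 0.64.

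Both replicates 3 moved the 10 genes unequally. Relative to replicates 1 and 2 of its group, on the log2 scale, WT replicate 3 was higher by 0.28 in ZNRF3 and 0.62 in NKD1, whose longest transcripts have 6872 and 17039 nt, while METTL3-KO replicate 3 was lower in both, by -0.24 and -0.38. In SP5, with a transcript of 2047 nt, the signs were opposite, at -0.33 and 0.43. DKK1, with 1805 nt, moved by -0.02 and 0.12, against its log2 fold change of 2.09. With an offset for transcript length and GC content in each library, the log2 fold changes were 2.13 for DKK1, 0.94 for SP5, 0.47 for AXIN2, 0.16 for RNF43, -0.30 for ZNRF3 and -1.39 for LGR5. The order of these 6 genes was the same with all libraries, without replicate 3 of either group and with the offset.

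**Figure D2:**
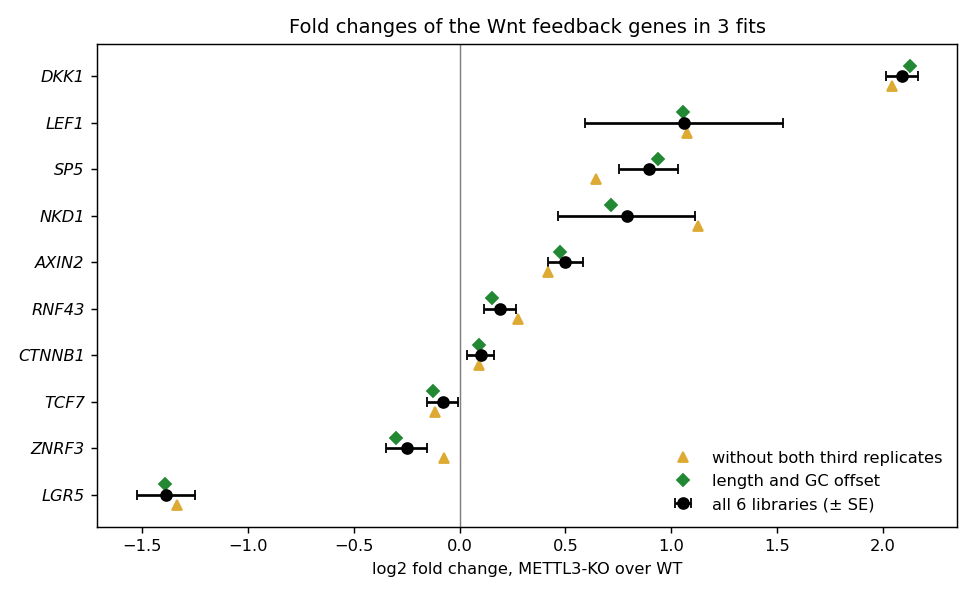
Log2 fold change, METTL3-KO over WT, of each gene with all 6 libraries (black circles, bars are ± SE), without both replicates 3 (yellow triangles) and with an offset for transcript length and GC content (green diamonds). DKK1 lies between 2.05 and 2.13 and LGR5 between -1.39 and -1.34 in all 3 fits, while ZNRF3 moves from -0.30 to -0.08 and NKD1 from 0.71 to 1.13.

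Within a group, the levels of different genes were compared as CPM per kilobase of annotated exon. In WT the order was RNF43 (42.0 ± 3.20), DKK1 (18.0 ± 0.151), CTNNB1 (16.6 ± 0.374), ZNRF3 (14.5 ± 1.67), AXIN2 (11.1 ± 1.11), SP5 (6.52 ± 0.840), TCF7 (5.42 ± 0.269) and LGR5 (1.72 ± 0.123; SD, n = 3 for each), with LEF1 and NKD1 below 0.05. Neighbours did not differ beyond their ranges for CTNNB1 and ZNRF3, for SP5 and TCF7, and for LEF1 and NKD1. In METTL3-KO, DKK1 (76.7 ± 4.84) was above RNF43 (47.9 ± 1.99), CTNNB1 (17.7 ± 0.262) and AXIN2 (15.7 ± 0.0867), and ZNRF3 (12.2 ± 1.19) and SP5 (12.1 ± 2.30) could not be separated. LGR5 was at 0.650 ± 0.103. The order depends on the length used: with the longest transcript in place of all exons, WT levels were 39.9 for CTNNB1 and 22.1 for DKK1, and 10.2 for TCF7 and 6.61 for SP5, so both pairs changed places, while DKK1 stayed the highest in METTL3-KO at 94.4, above RNF43 at 54.3.

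**Figure D3:**
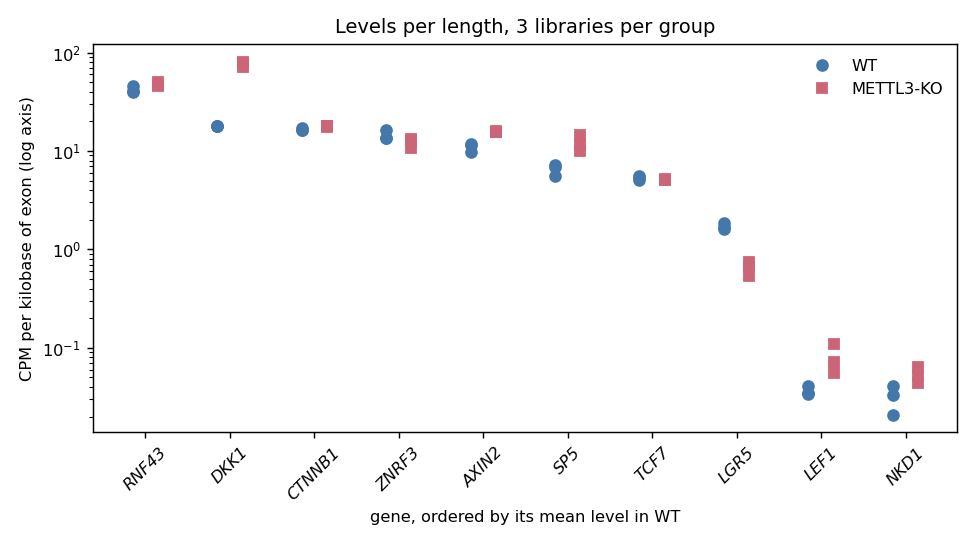
Level of each gene as CPM per kilobase of annotated exon on a log axis, in the 3 WT (blue circles) and 3 METTL3-KO libraries (red squares), ordered by the WT mean. DKK1 passes from 18.0 in WT, below RNF43, to 76.7 in METTL3-KO, above it, and LEF1 and NKD1 are far below the other genes in both groups.

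By their values over the 6 libraries, each gene's log2 CPM less its own WT mean, the genes most like DKK1 among 10377 compared were EMP1, INSIG1 and LRRC66, with a root mean square difference of 0.0833, 0.117 and 0.146. EMP1 was at 36.4 CPM in WT and 149.5 CPM in METTL3-KO, INSIG1 at 21.2 and 83.1 CPM and LRRC66 at 3.23 and 15.2 CPM. EMP1 and INSIG1 encode a membrane protein and a regulator of sterol synthesis, and none of the 3 is on the pathway lists used here. Among 12904 genes compared, the nearest to LGR5 were PDE4A (0.0403), a cyclic AMP phosphodiesterase, RP11-690D19.3 (0.144) and IHH (0.153), a secreted hedgehog ligand. PDE4A was at 4.34 CPM in WT and 1.60 CPM in METTL3-KO, and IHH at 13.0 and 5.34 CPM. This likeness follows mainly the fold change between the groups, which on the log2 scale was 2.04 for EMP1 and -1.42 for PDE4A. The closest of so many genes can match within counting error, and shared control was not tested.

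The rest of the pathway was described with 8 lists of families and textbook members. They were chosen with earlier results of these data known, so their shares are a description. Not every family is complete, since CSNK1G1 is listed without CSNK1G2 and CSNK1G3. The lists hold 108 genes in all. Of these, 84 were tested, 20 rose and 10 fell (23.8% and 11.9%, beside 13.3% and 13.2% of all tested genes), with a median log2 fold change of 0.046. 13 of the 108 had no count in any library, among them DKK4 and the secreted inhibitors SFRP1, SFRP2 and SFRP4. All adjusted p-values that follow come from the same edgeR fit, corrected by Benjamini and Hochberg over the 22452 tested genes.

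Among the 19 Wnt ligands, 12 were tested, 3 rose and 1 fell. WNT2B, a ligand of the canonical pathway, had 152, 133 and 116 counts in WT and 429, 323 and 322 in METTL3-KO, a rise of 1.34 on the log2 scale (SE 0.102, edgeR adjusted p = 4.12e-06). WNT7B rose by 0.46 (SE 0.0814, edgeR adjusted p = 0.00136). WNT11, known mostly for non-canonical signalling, had a log2 fold change of -1.14 (SE 0.151, edgeR adjusted p = 0.000187), with 300, 219 and 157 counts in WT and 130, 90 and 102 in METTL3-KO. PORCN, the enzyme that attaches the lipid Wnt ligands need, fell, with a log2 fold change of -0.48 (SE 0.109, edgeR adjusted p = 0.00645), and was 1 of the 2 genes of ligand secretion.

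Among the Wnt receptors none of the 12 tested rose and 3 fell. The Frizzled receptors FZD2 (log2 fold change -0.91, SE 0.169, edgeR adjusted p = 0.00184) and FZD5 (-0.35, SE 0.0830, edgeR adjusted p = 0.00843) fell, as did RYK, a receptor of the tyrosine kinase type (-0.28, SE 0.0696, edgeR adjusted p = 0.00993). RYK did not pass without WT replicate 2 (edgeR adjusted p = 0.0507) or without METTL3-KO replicate 1 (edgeR adjusted p = 0.0518). The list's median was -0.179, and 10 of its 12 tested genes had a negative log2 fold change, beside 11630 of the 22452 tested genes.

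Among the extracellular inhibitors other than DKK1, 7 of 15 were tested, 2 rose and none fell. SOSTDC1, which binds LRP6 and also blocks bone morphogenetic proteins, went from 11.3 ± 1.16 to 18.1 ± 1.33 CPM (SD, n = 3 each), a log2 fold change of 0.69 (SE 0.105, edgeR adjusted p = 0.000521). KREMEN1, the membrane partner of DKK1, went from 49.0 ± 1.01 to 58.1 ± 2.95 CPM (SD, n = 3 each; log2 fold change 0.25, SE 0.0739, edgeR adjusted p = 0.0274). It passed in 2 of 6 fits with a library left out, and failed without WT replicate 1 (edgeR adjusted p = 0.0828), WT replicate 2 (0.0784), METTL3-KO replicate 2 (0.113) and METTL3-KO replicate 3 (0.0703). Of the other DKK genes, DKK3 held 3 to 5 counts per library, DKK2 held 2 counts in METTL3-KO replicate 1 and none elsewhere, and DKK4 held none, so that nearly all counts of these DKK genes were those of DKK1.

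Among the 19 genes listed under Dishevelled and the destruction complex, all tested, 3 rose and 1 fell. Beside AXIN1, the kinases CSNK1G1 (log2 fold change 0.63, SE 0.0956, edgeR adjusted p = 0.000493) and GSK3B (0.39, SE 0.0998, edgeR adjusted p = 0.0129) rose. CSNK1G1 was listed by family, and the list does not make it a part of the complex. CSNK1A1, CSNK1D and CSNK1E, also listed, did not pass (edgeR adjusted p = 0.197, 0.162 and 0.867). GSK3B, the kinase that phosphorylates beta-catenin for degradation, did not pass without WT replicate 1 (edgeR adjusted p = 0.0533) or METTL3-KO replicate 1 (0.0666). BTRC, which recognises phosphorylated beta-catenin, fell (log2 fold change -0.47, SE 0.0907, edgeR adjusted p = 0.00243).

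Among the nuclear partners of beta-catenin, 14 of 15 were tested, 5 rose and 2 fell. The corepressors TLE3 (log2 fold change 0.75, SE 0.0775, edgeR adjusted p = 3.50e-05) and TLE4 (0.61, SE 0.126, edgeR adjusted p = 0.00351) rose, and so did the coactivators BCL9 (0.52, SE 0.0965, edgeR adjusted p = 0.00177) and BCL9L (0.45, SE 0.101, edgeR adjusted p = 0.00594). CTBP1, a corepressor, fell from 237 ± 12.2 to 129 ± 5.91 CPM (SD, n = 3 each), with a log2 fold change of -0.88 (SE 0.0728, edgeR adjusted p = 7.92e-06). Repressors and activators were thus both found among the genes that rose.

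Among 17 other target genes of beta-catenin and TCF, 16 were tested, 6 rose and 2 fell, with a median log2 fold change of 0.232. PROX1, a transcription factor of colon tumours, rose by 0.98 (SE 0.185, edgeR adjusted p = 0.00199), and ASCL2, a transcription factor of crypt stem cells, by 0.69 (SE 0.141, edgeR adjusted p = 0.00318). FOSL1, a member of AP-1, rose by 0.61 (SE 0.103, edgeR adjusted p = 0.00102) and PPARD, a lipid-sensing nuclear receptor, by 0.51 (SE 0.0698, edgeR adjusted p = 0.000249). The growth factors TDGF1 (log2 fold change -0.62, SE 0.180, edgeR adjusted p = 0.0243) and BMP4 (-0.31, SE 0.0673, edgeR adjusted p = 0.00463) fell. TDGF1 failed without WT replicate 1 (edgeR adjusted p = 0.0878), WT replicate 2 (0.0742), METTL3-KO replicate 1 (0.0627) and METTL3-KO replicate 2 (0.101).

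**Figure D4:**
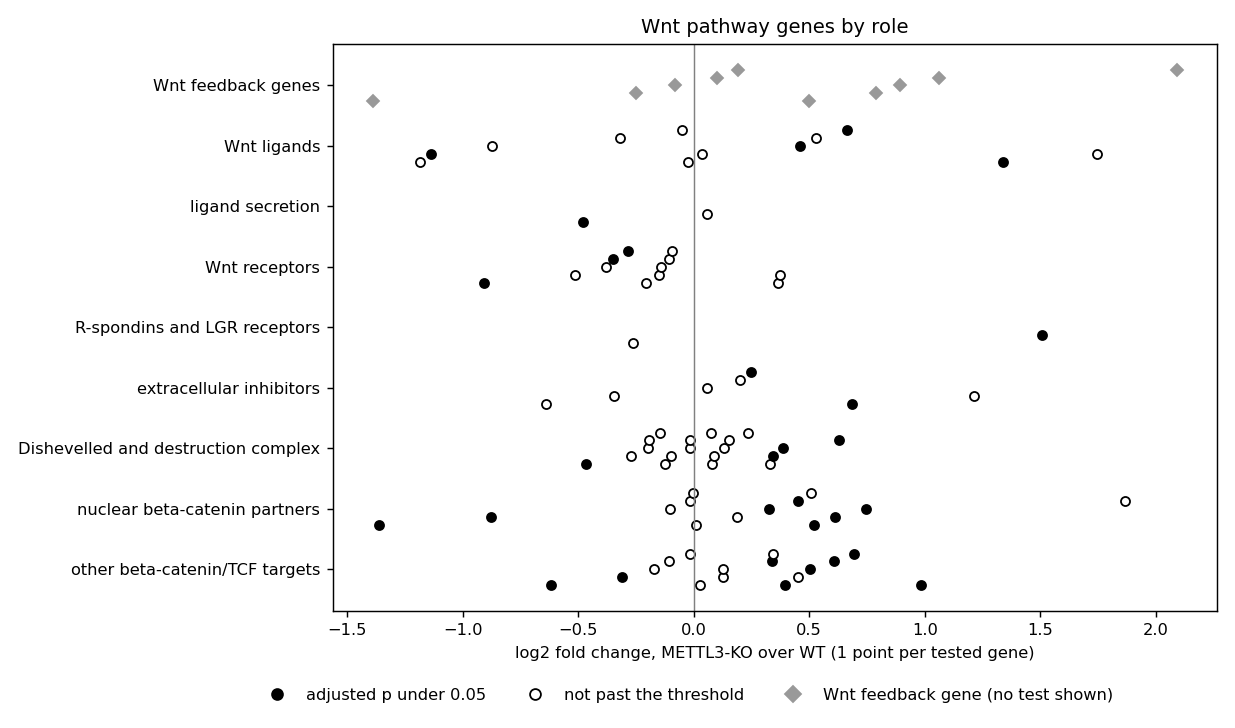
Log2 fold change, METTL3-KO over WT, of each tested gene of the pathway, 1 point per gene, by role; filled circles passed an adjusted p under 0.05 in edgeR's test, open circles did not, and grey diamonds are the 10 Wnt feedback genes, for which no test is shown. DKK1 at 2.09 lies further to the right than any gene of the other lists, and no Wnt receptor is filled on the right of 0.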

How the data were processed

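RNA-seq of HCT116 cells, 3 WT and 3 METTL3-KO samples, was analysed as labelled. Read pairs were mapped by the authors to hg19 with TopHat2 (2.0.11 per the labels), and they deposited raw htseq-count counts per gene symbol. The strand setting is not given in the sources used here. The authors compared conditions with DESeq2.

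Symbols under a total of 5 counts in each condition were dropped. METTL3-KO was compared with WT by edgeR's quasi-likelihood test (edgeR 4.0.16, R 4.3.3; TMM, two-sided, Benjamini-Hochberg over 22452 genes, threshold 0.05); SE is the log2 fold change over the root of F. CPM uses TMM-scaled library sizes. Exons, lengths and positions came from GENCODE on GRCh37, which matched 33872 of 56638 symbols, and promoters from RefSeq. The paper names an Ensembl GRCh37 annotation, so the exon overlaps given here may differ from those met in its counting.

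The 10 genes and the pathway lists were chosen with earlier results of these data known; paralog ratios were added after values were seen. Named are the 10 genes, METTL3, their paralogs, up to 4 genes per list and direction with the largest log2 fold change among those past the threshold, averaging a log2 CPM of at least 1 without overlap, and the 3 genes most like DKK1 (mean log2 CPM of at least 3) and LGR5 (at least 1). PRKG1-AS1 was named after its values were seen.

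Alternatives were DESeq2 1.42.0, RLE scaling, filterByExpr, a filter of 1 count, a replicate block, each library left out, both replicates 3 left out, and a length and GC offset (splines, 5 degrees of freedom), also with the block.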

Additional observations from a re-analysis of the deposited data

How the results depend on the processing

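Over all tested genes, 2986 were higher and 2959 lower in METTL3-KO. The samples were not treated as paired by label number, and the labels and files number the WT samples differently. Same-numbered deviations from the group means correlated at -0.584, -0.391 and -0.783 across 10378 genes, the others at -0.546 to 0.717. Deviations within a group depend on each other and follow the opposite length trends of both replicates 3. These correlations therefore cannot tell whether samples of the same number shared a batch. With the replicate number as a block (replicate block), 1810 were higher and 1719 lower, the pathway genes outside the 10 numbered 15 higher and 5 lower, and of those named FZD5, RYK, KREMEN1, GSK3B, TDGF1 and BMP4 no longer passed. Without both replicates 3, 4555 were higher and 4823 lower, with 29 higher and 19 lower pathway genes and 5 of the 10 genes higher, RNF43 and NKD1 being added. With each library left out, 2188 to 3809 genes were higher and 1976 to 3793 lower, 16 to 25 pathway genes were higher and 7 to 11 lower, and 3 to 5 of the 10 were higher, 5 only without WT replicate 3, by RNF43 and NKD1. With the length and GC offset, 3729 of all tested genes were higher and 3713 lower. There, 24 pathway genes were higher and 16 lower, and 4 of the 10 were higher, RNF43 being added. LGR5 and ZNRF3, 2 of the 10, were lower with that offset, with the offset and the replicate block, and with no filter beyond 1 count. Over all tested genes, 2881 were higher and 2784 lower with the offset and the block. With no filter beyond 1 count, 3425 were higher and 3339 lower of 30323 tested. DESeq2 gave 2908 higher and 2700 lower genes. The counts of the 10 genes are a description, since this contrast was known when they were chosen. LGR6 passed in all of these fits. The sign changed only in 3 paralogs with no call: TCF7L2 (-0.003) was 0.006 with DESeq2 and with RLE scaling, 0.002 with filterByExpr, 0.004 with the filter of 1 count and 0.083 without both replicates 3, and -0.028 to 0.058 with each library left out; DKK3 (0.057) was -0.273 without both replicates 3 and -0.268 to 0.312 with each left out; NKD2 (-0.125) was -0.291 without both replicates 3, where it passed, and -0.229 to 0.002 with each left out. LEF1 was not tested with filterByExpr. RLE scaling moved the median log2 fold change by 0.0091. The causes were not tested. Depth limits NKD1, LEF1, DKK3 and TCF7L1, with under 35 counts per library, and 1 clone and 3 libraries per group limit the rest.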
